A study of Mus musculus with 16 samples.

Results

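Oxidative phosphorylation is carried out in the inner mitochondrial membrane by complexes I to V. Complexes I and II pass electrons from NADH and succinate to ubiquinone, complex III passes them on to cytochrome c, and complex IV passes them to oxygen. Complexes I, III and IV pump protons, and complex V, the ATP synthase, uses the returning protons to make ATP. Most subunits are encoded in the nucleus, while a small set is encoded by mitochondrial DNA. Germinal center (GC) B cells that receive T cell help induce cMyc, a transcription factor known for driving growth and mitochondrial gene programs.

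The genes described here are the nuclear-encoded genes whose symbols start with Nduf, Uqcr, Cox4 to Cox8 or Atp5, together with Sdha, Sdhb, Sdhc and Sdhd. Rows named as pseudogenes were left out, which concerned 7 rows. The choice used names and no expression value, and it gave 93 members among 51912 genes in the table. Complex I held 44 of them, of which 7 were core subunits, 29 accessory subunits and 8 assembly factors (Ndufaf genes). Complex II held 4, complex III 8, complex IV 20 and complex V 17. Ndufa4, first described in complex I, was placed with complex IV together with its paralog Ndufa4l2.

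Bulk RNA-seq had been made from 16 libraries of splenic cMyc+ GC B cells, 4 in each of 4 subpopulations. All cells came from mice of both sexes aged 6 to 15 weeks on a C57BL/6J background that were homozygous for a GFP-cMyc fusion at the endogenous cMyc locus (cMyc gfp/gfp), and they were taken on day 7 after sheep red blood cell immunization. Every subpopulation thus carried the fusion allele and none was unimmunized, and each was gated as B220+ CD38low CD95+ and positive for cMyc-GFP after depletion of CD43+ cells on magnetic columns. The cMyc+prePB cells, named for plasmablast precursors, were CD69hi. The cMyc+early cells were CD23hi CD21/35hi, the cMyc+lateCD23int cells were intermediate for CD23, and the cMyc+lateCD23lo cells were low for it.

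The libraries held 19812080 to 25795815 reads and 14650 to 15573 detected genes. All 10 B and GC B cell markers checked were detected in every library, and Fcer2a, which encodes CD23, averaged 13400 normalized counts in cMyc+early and 2274 in cMyc+lateCD23lo. Cd69 transcript was not highest in the CD69hi gate, at 3453 ± 1297 in cMyc+prePB and 3762 ± 1766 in cMyc+lateCD23int (SD, n = 4). Markers of T cells summed to at most 139 normalized counts in a library, those of NK cells to 62.2, those of myeloid cells to 1173 and those of erythroid cells and platelets to 2306. Fewer cells of a type and less RNA per cell cannot be told apart in bulk samples. The labels do not say whether libraries of a subpopulation came from separate animals, so p-values measure the spread between these libraries, which may be technical.

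Sequence upstream of the members' start sites was examined for letters that transcription factors linked to respiratory genes are known to bind. RefSeq promoter windows (GRCm38.p6, 250 bases before to 50 bases after the start site) were matched for 77 of 93 members, and both strands were searched. The letters GCGCATGCG, the core recognized by the nuclear respiratory factor NRF1, stood in 10 of 77 members (13%) and in 1.95% of all 27025 genes with a window. AAGATGGCG, which YY1 binds, stood in 9 members (11.7%) against 1.64% of all genes, and CCGGAAG, an ETS family motif, in 18 members (23.4%) against 9.93%. The E-box CACGTG, which cMyc binds with its partner MAX, stood in 7 members (9.09%) against 8.09% of all genes. The GC box GGGGCGG stood in 24 members (31.2%) against 25.5%. No 2 of these motifs overlapped each other in a member's window, and a match describes letters, not binding. The share of all genes was not restricted to genes expressed in these cells, so members were not set against other expressed genes.

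Stretches from members of complexes I, IV and V show where these letters lie, 5′ to 3′ on the strand of the gene, with the matched letters in capitals. The first 4 hold the NRF1 letters, Atp5j holds the YY1 letters and Atp5g1 the E-box.
Ndufa8 (GRCm38.p6, chr2:36049339-36049367, minus strand): cgcttgcgcgtcgctggagaCGCATGCGC
Cox6a1 (chr5:115349092-115349140, minus strand): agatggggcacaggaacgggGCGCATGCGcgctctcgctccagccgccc
Atp5g2 (chr15:102671061-102671109, minus strand): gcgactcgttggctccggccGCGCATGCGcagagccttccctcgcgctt
Ndufa11 (chr17:56717682-56717730, plus strand): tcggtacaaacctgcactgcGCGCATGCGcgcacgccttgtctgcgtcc
Atp5j (chr16:84835036-84835084, minus strand): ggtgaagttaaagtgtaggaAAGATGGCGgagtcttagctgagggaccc
Atp5g1 (chr11:96075650-96075695, minus strand): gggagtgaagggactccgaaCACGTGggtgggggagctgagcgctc
In Ndufa8 the capitals are the reverse complement of the NRF1 letters and end at the base before the start site.

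The members were abundant in all 4 subpopulations. Together they made up 1.63% to 2.22% of the normalized counts of a library, with a mean of 2.02% ± 0.08 in cMyc+prePB, 1.80% ± 0.15 for cMyc+early, 1.94% ± 0.20 for cMyc+lateCD23int and 2.12% ± 0.08 in cMyc+lateCD23lo (SD, n = 4). The 13 subunits encoded by mitochondrial DNA took a further 1.23% to 2.59%, the highest share being in cMyc+lateCD23int replicate 1. The ranges of the nuclear share in cMyc+early, 1.63% to 1.99%, and in cMyc+lateCD23lo, 2.03% to 2.22%, did not overlap.

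Levels were compared between genes per kb of transcript, taking for each gene a GENCODE vM21 transcript length, as means over the 16 libraries. The median structural subunit stood at 4771 normalized counts per kb in complex I, 3271 in complex II, 9989 in complex III, 9216 in complex IV and 8432 in complex V. Uqcr10, a small subunit of complex III, was highest of all at 17895 per kb, followed by Cox4i1 of complex IV at 16689 and Ndufa4 at 16668. Within complex I the highest were Ndufc1 at 14188 and Ndufb8 at 13807, and the lowest subunit was Ndufb4 at 753. Sdhb, the iron-sulfur subunit of succinate dehydrogenase, stood at 13560 per kb, while the membrane anchor Sdhc stood at 349. The 8 assembly factors of complex I, which help to build the complex and do not remain in it, lay between 349 and 2473 per kb with a median of 769.5.

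**Figure D1:**
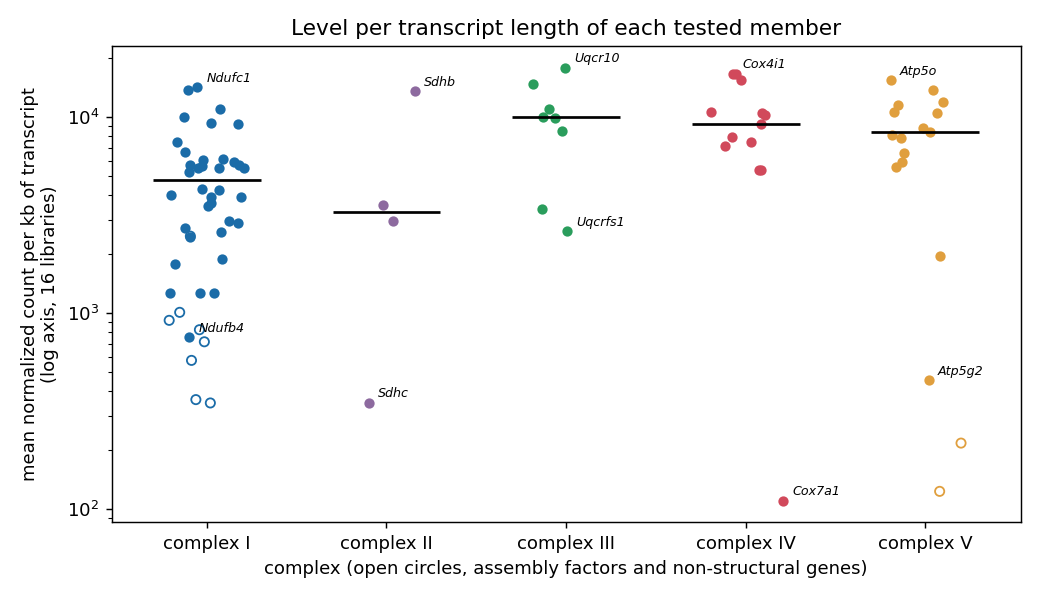
Mean level per kb of transcript (y axis, normalized counts per kb, log axis) of each of the 86 tested members, by complex (x axis). Each point is 1 gene over 16 libraries, open circles are assembly factors and other non-structural genes, and lines are medians of the structural subunits, which run from 3271 in complex II to 9989 in complex III.

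Paralogous genes of complex IV differed widely in level per kb. Cox6a1, the ubiquitous form, averaged 10663 normalized counts per kb and the heart and muscle form Cox6a2 8.17. Cox6b1 averaged 15410 per kb and Cox6b2, known from testis, 17.2. For Cox4i1 and Cox4i2, known from lung, the values were 16689 and 5.62 per kb. Cox8a averaged 7929 per kb, whereas Cox8b, Cox8c and Cox7b2 had 0 reads in all 16 libraries, below the floor of 3 reads in each. The heart and muscle isoform Cox7a1 averaged 111 per kb, against 7444 for Cox7a2 and 5355 for Cox7a2l, a protein known for assembling respiratory supercomplexes. Ndufa4 averaged 16668 per kb and Ndufa4l2, known as a hypoxia-induced paralog, 3.37. Cox4i2, Cox6a2, Cox6b2, Ndufa4l2, Cox7b2, Cox8b and Cox8c had mean normalized counts under 10 and were the 7 members not tested. The highest of them in any library was Cox4i2 with 34 reads.

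Of the 93 members, 86 passed the filter, a mean normalized count of at least 10 over all libraries, and were tested in 8 comparisons. None passed an adjusted p of 0.05 (limma, Benjamini-Hochberg over 12505 genes) in any of them. The lowest adjusted p of a member was 0.40 in the comparison of all 4 subpopulations, 0.51 in cMyc+prePB against cMyc+early, 1.0 in cMyc+early against cMyc+lateCD23int and 0.70 in cMyc+lateCD23int against cMyc+lateCD23lo (limma). It was 0.32 in cMyc+early against cMyc+lateCD23lo, 0.42 in cMyc+prePB against cMyc+lateCD23int, 0.26 in cMyc+prePB against cMyc+lateCD23lo and 0.34 in cMyc+prePB against the other subpopulations (limma). Over all tested genes the shares called were 0.408%, 0.192%, 0.008%, 0.008%, 0.28%, 0.144%, 0.264% and 0.312% in the same order, so few genes of any kind passed. edgeR on the reads recovered from the normalized counts also called 0 members in each comparison. The median half-width of a member's 95% confidence interval was 0.41 on the log2 scale, a 1.33-fold difference, in a comparison of 2 subpopulations.

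At an unadjusted p under 0.05 the members were read against the share of all genes. The counts were 2 of 86 (all genes, 10.2%) over the 4 subpopulations, 3 (8.58%) for cMyc+prePB against cMyc+early, 0 (3.71%) for cMyc+early against cMyc+lateCD23int and 3 (6.28%) for cMyc+lateCD23int against cMyc+lateCD23lo. They were 2 (8.77%), 5 (12.7%) and 2 (11.1%) for cMyc+prePB against cMyc+lateCD23int, cMyc+lateCD23lo and the other subpopulations. In these 7 comparisons the members' share, 0% to 5.81%, lay below that of all genes. The exception was cMyc+early against cMyc+lateCD23lo, where 28 of 86 members (32.6%) had an unadjusted p under 0.05 against 10.3% of all genes, and all 28 were lower in cMyc+early, against 5.12% of all genes in that direction. edgeR gave 20 members there. The summed levels of 2 further marker lists, named for plasma cells and stroma, did not overlap between the same groups. The summed level of 4 plasma cell markers, most of it Jchain, was 22720 to 29240 normalized counts in cMyc+early and 55350 to 89660 in cMyc+lateCD23lo, and that of 3 stromal markers, most of it Pecam1, was 942 to 1329 and 489 to 637. The plasma cell marker Sdc1 and the stromal marker Col1a1 were at most 107.5 and 4.51 in any library. Prdm1, also a plasma cell marker, averaged 2.74 ± 3.59 in cMyc+early and 82.87 ± 51.85 in cMyc+lateCD23lo (SD, n = 4). Xbp1 averaged 3599 and 4250 in the same groups, while the mean of Sdc1 was lower in cMyc+lateCD23lo. The part of plasma cells and stroma in the members' difference was not tested.

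That count depended on single libraries. It was 1 without cMyc+early replicate 4, 7 without cMyc+early replicate 2 and 47 without cMyc+early replicate 3. It was 10, 12 and 14 without cMyc+lateCD23lo replicates 1, 3 and 4. Every cMyc+early library lay below every cMyc+lateCD23lo library for 11 of 86 members (12.8%), against 3.37% of all genes, and the opposite held for 0 members, against 2.86% of all genes. The 11 were Ndufa8, Uqcr11, Uqcrb, Cox5a, Cox6a1, Cox7a2, Cox8a, Atp5e, Atp5g3, Atp5j and Atp5j2, of which only Cox5a had an unadjusted p above 0.05.

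**Figure D2:**
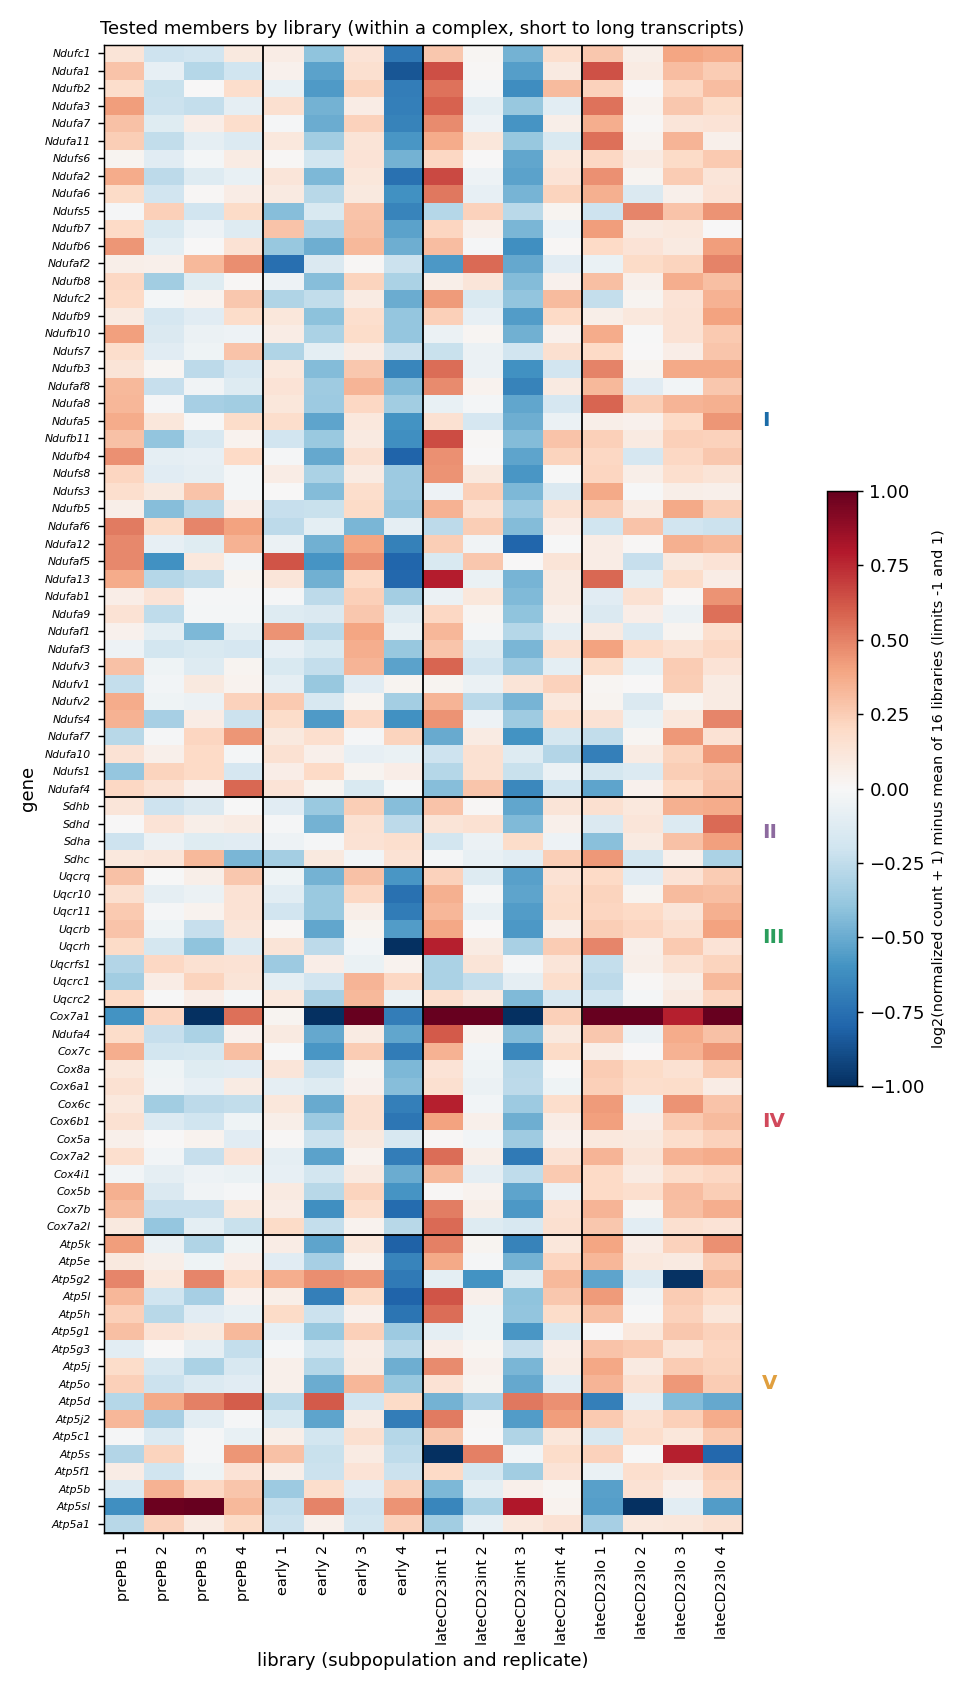
Deviation of log2(normalized count + 1) of tested members (rows, by complex and within a complex from short to long transcripts) from its mean over 16 libraries (columns, subpopulation and replicate). Colors are log2 units limited at -1 and 1, and the columns of early replicates 2 and 4 and lateCD23int replicate 3 are mostly blue, with 74, 75 and 79 of 86 members below their means.

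Members moved together from library to library. The median deviation of the 86 members from their own 16-library means was -0.32 in cMyc+early replicate 2, -0.46 in cMyc+early replicate 4 and -0.44 in cMyc+lateCD23int replicate 3 on the log2 scale. The other libraries of those subpopulations lay between -0.004 and 0.26, and cMyc+lateCD23lo lay between 0.05 and 0.26. In cMyc+lateCD23lo replicates 3 and 4, 7 and 5 members were below their means. By group means on the log2 scale, 62 of 86 members were highest in cMyc+lateCD23lo, as were 28.0% of all genes, and 61 of 86 were lowest in cMyc+early, as were 24.8% of all genes. The median within-subpopulation SD of a member was 0.27 on the log2 scale, against 0.30 for other genes with a mean of at least 1000.

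Across comparisons the median log2 fold change of the 86 members, where all genes had medians between -0.03 and 0.02, was 0.17 for cMyc+prePB minus cMyc+early (77 positive), -0.12 for cMyc+early minus cMyc+lateCD23int (20 positive) and -0.17 for cMyc+lateCD23int minus cMyc+lateCD23lo (6 positive). It was -0.32 for cMyc+early minus cMyc+lateCD23lo (11 positive), 0.04 for cMyc+prePB minus cMyc+lateCD23int (51 positive) and -0.15 for cMyc+prePB minus cMyc+lateCD23lo (20 positive). These comparisons share subpopulations and are not independent of each other. Without cMyc+early replicates 2 and 4 and cMyc+lateCD23int replicate 3, the first of these medians was -0.08 and that for cMyc+early minus cMyc+lateCD23lo was -0.10. This setting was chosen after seeing the data and leaves only cMyc+early replicates 1 and 3. The libraries left out also had the lowest median deviations of the members, so such a shift follows in part from their removal.

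**Figure D3:**
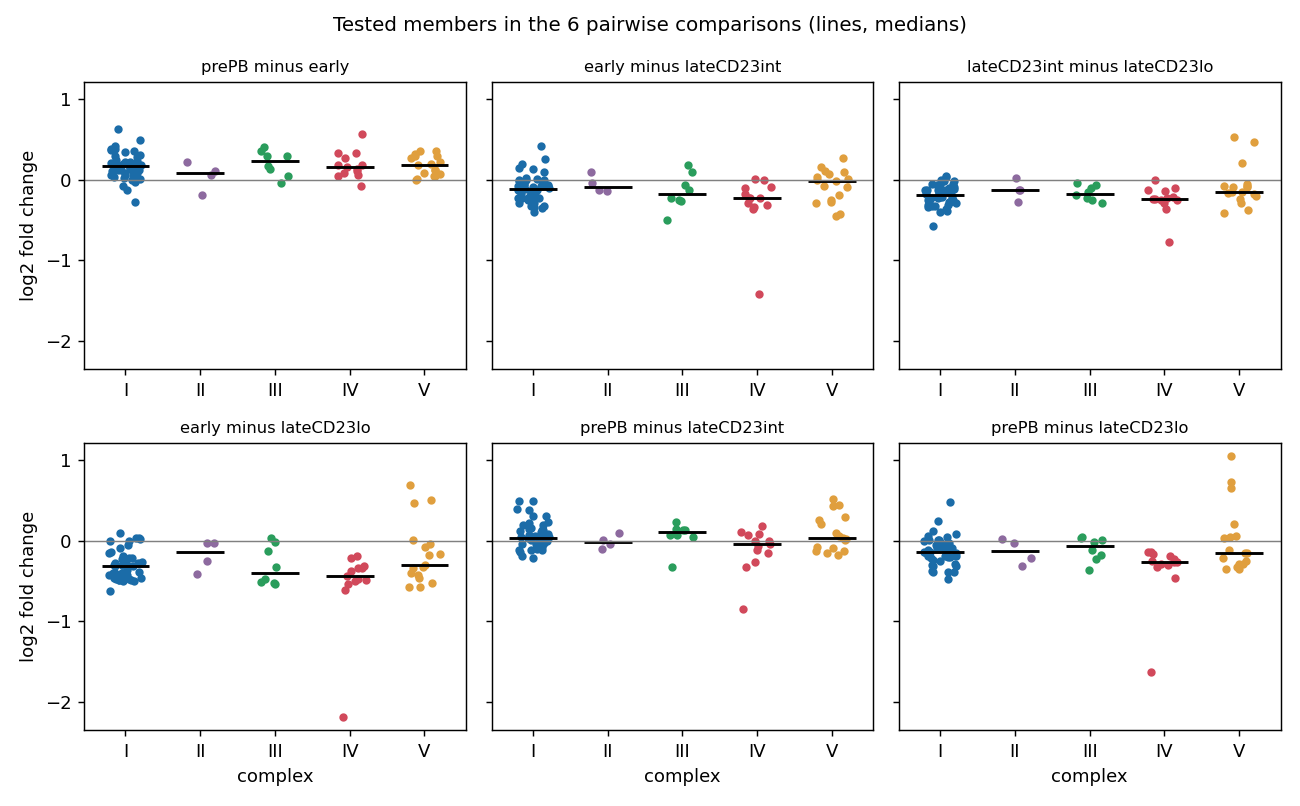
Log2 fold change (y axis, first subpopulation minus second) of each tested member in the 6 pairwise comparisons, by complex (x axis). Points are genes and lines are medians, and in early minus lateCD23lo the medians run from -0.14 in complex II to -0.43 in complex IV, although no gene passed the adjusted threshold.

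In complex I, all 44 members were tested and the median log2 fold change for cMyc+early minus cMyc+lateCD23lo was -0.31, with 9 at an unadjusted p under 0.05. All 9 were accessory subunits, whose median was -0.40 (28 of 29 negative), against -0.23 for the 7 core subunits and -0.12 for the 8 assembly factors. These classes were not matched for transcript length, with which this fold change varied over the members (described below). Ndufa8, an accessory subunit whose upstream stretch is printed above, had the smallest p over the 4 subpopulations. Its normalized counts were 5957, 4684, 3763 and 3718 in cMyc+prePB, 5119, 3666, 5455 and 3721 for cMyc+early, 4486, 4669, 3294 and 4197 for cMyc+lateCD23int, and 7073, 5604, 5985 and 6053 in cMyc+lateCD23lo. The cMyc+lateCD23lo libraries lay above all cMyc+early and cMyc+lateCD23int libraries and overlapped with cMyc+prePB only through cMyc+prePB replicate 1. The F test gave an adjusted p of 0.40 (limma), and Ndufa8 differed by -0.58 ± 0.18 on the log2 scale (SE, 95% interval -0.96 to -0.20) for cMyc+lateCD23int minus cMyc+lateCD23lo, with an adjusted p of 0.70 (limma).

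Ndufa1, named after its values were seen, is a small accessory subunit needed for assembly of the membrane arm and had the lowest log2 fold change of complex I in cMyc+early minus cMyc+lateCD23lo, -0.62 ± 0.25 (SE, adjusted p = 0.40, limma). Its counts were 3105, 2080, 3380 and 1665 in cMyc+early and 4689, 3201, 3734 and 3598 in cMyc+lateCD23lo. Replicates 1, 2 and 4 of cMyc+early were below all cMyc+lateCD23lo libraries, and replicate 3 was above 1 of them. Ndufb5, an accessory subunit with the third smallest F test p of the complex, differed by -0.40 ± 0.18 (SE, adjusted p = 0.44, limma).

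Ndufs1, the largest core subunit and the carrier of several iron-sulfur clusters of the NADH-oxidizing arm, differed little. Its counts were 3396, 3721, 3299 and 3399 in cMyc+early and 2870, 2950, 3845 and 3913 in cMyc+lateCD23lo. The groups overlapped, and the log2 difference was 0.04 ± 0.17 (SE, 95% interval -0.32 to 0.39). The core subunits were not alike, since Ndufs3, Ndufs7, Ndufs8 and Ndufv1 differed by -0.28, -0.27, -0.27 and -0.225, and Ndufv2 by -0.05. In cMyc+early replicates 2 and 4, where Ndufa1 was at its lowest, Ndufs1 lay at or above its level in replicates 1 and 3.

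Among the assembly factors, Ndufaf6 had the largest log2 fold change of any member in cMyc+prePB minus cMyc+early, 0.63 ± 0.25 (SE, adjusted p = 0.51, limma). Its counts were 550, 438, 538 and 508 in cMyc+prePB, 320, 358, 279 and 359 for cMyc+early, 319, 455, 283 and 402 for cMyc+lateCD23int, and 333, 467, 336 and 330 in cMyc+lateCD23lo. The cMyc+prePB libraries lay above all cMyc+early libraries, and replicate 2 of cMyc+prePB overlapped with both late subpopulations. Ndufaf1 was the lowest member of the same comparison at -0.28 ± 0.20 (SE), and Ndufaf7, a methyltransferase, the highest in cMyc+early minus cMyc+lateCD23int at 0.41 ± 0.20 (SE, adjusted p = 1.0, limma).

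Complex II had the median nearest to 0 of the 5 complexes for cMyc+early minus cMyc+lateCD23lo, -0.14 over its 4 members. Sdha, the flavoprotein that oxidizes succinate, was at 8203, 8440, 9393 and 9568 in cMyc+early and at 6374, 9055, 10436 and 11298 in cMyc+lateCD23lo. The cMyc+early values fell inside the cMyc+lateCD23lo range, and the log2 difference was -0.03 ± 0.16 (SE, 95% interval -0.36 to 0.29). Sdhb was the exception, at 14064, 11748, 18032 and 11353 in cMyc+early and 16984, 16407, 19496 and 19750 in cMyc+lateCD23lo. The groups overlapped through cMyc+early replicate 3, with a log2 difference of -0.42 ± 0.17 (SE, adjusted p = 0.41, limma). Sdhc and Sdhd had adjusted p-values of 1.0 and 0.84 in the F test (limma).

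In complex III the median log2 fold change for cMyc+early minus cMyc+lateCD23lo was -0.40, and 4 of 8 members had an unadjusted p under 0.05. Uqcr11, a small subunit of the cytochrome bc1 complex, was at 4206, 3708, 5010 and 2962 in cMyc+early and 5582, 5502, 5214 and 6157 in cMyc+lateCD23lo. The groups did not overlap, and the log2 difference was -0.52 ± 0.19 (SE, 95% interval -0.91 to -0.13, adjusted p = 0.32, limma). Uqcrb and Uqcrh, also small subunits, differed by -0.51 ± 0.19 (SE, adjusted p = 0.36, limma) and -0.54 ± 0.24 (SE, adjusted p = 0.45, limma), and Uqcrb by -0.10 (-0.0975) with the length and GC trend removed. The small subunits Uqcr10 and Uqcrq, named after their values were seen, had log2 differences of -0.47 ± 0.20 (SE, adjusted p = 0.41, limma) and -0.32 ± 0.20 (SE, adjusted p = 0.58, limma). Uqcrc1, a core protein, was at 15299, 14402, 20793 and 18966 in cMyc+early and 13686, 16545, 17069 and 20525 in cMyc+lateCD23lo, with overlapping groups and a log2 difference of 0.03 ± 0.17 (SE, 95% interval -0.32 to 0.38). Uqcrc2 and Uqcrfs1, the Rieske iron-sulfur protein, both had an adjusted p of 0.95 in the F test (limma).

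All 13 tested members of complex IV were lower in cMyc+early than in cMyc+lateCD23lo by their means on the log2 scale (median -0.43), and 7 of them had an unadjusted p under 0.05. Cox7a2 was at 4480, 3285, 4876 and 2950 in cMyc+early and 6020, 5219, 6058 and 6146 in cMyc+lateCD23lo. The groups did not overlap, and cMyc+early replicates 2 and 4 were again the lowest. The log2 difference was -0.62 ± 0.22 (SE, 95% interval -1.08 to -0.16), a 1.53-fold higher level in cMyc+lateCD23lo, with an adjusted p of 0.32 (limma). Cox4i1, the regulatory subunit that binds ATP, was at 11606, 10845, 13093 and 8749 against 14128, 13003, 13908 and 14224. These groups overlapped by 1 library, and the difference was -0.33 ± 0.14 (SE, adjusted p = 0.43, limma). Cox5a, at -0.22 ± 0.13 (SE), and Cox5b, at -0.37 ± 0.18 (SE), had adjusted p-values of 0.56 and 0.49 (limma).

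The largest differences of any member by size belonged to the low-level isoform Cox7a1 and rested on single libraries. Cox7a1 was at 30.4, 0, 83.7 and 18.1 normalized counts in cMyc+early and 62.5, 72.0, 52.0 and 87.7 in cMyc+lateCD23lo. The log2 difference of -2.19 ± 1.08 (SE, adjusted p = 0.50, limma) was -0.89 without cMyc+early replicate 2, the library at 0, and -1.04 by edgeR.

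Complex V comprised the F1 head, the membrane rotor made of subunit c, and the stalk and membrane parts. For cMyc+early minus cMyc+lateCD23lo the median was -0.04 over the 5 subunits of the head and -0.42 over the 7 subunits of the stalk and membrane parts, all 7 of them negative. The head subunits were not alike, since they ran from -0.46 ± 0.18 for Atp5e to 0.51 ± 0.27 for Atp5d (SE). Atp5e thus lay as low as the stalk and membrane median. The head and the other parts were not matched for transcript length, with which this fold change varied over the 86 members (Spearman's rho 0.69). The part of length in this contrast was not tested. Atp5b, the catalytic beta subunit, differed by 0.02 ± 0.18 (SE, 95% interval -0.37 to 0.40) and Atp5a1, the alpha subunit, by -0.04 ± 0.16 (SE, 95% interval -0.38 to 0.30). Atp5j2, a small membrane subunit also named after its values were seen, was at 4637, 3559, 5429 and 3182 in cMyc+early and 6175, 5702, 6055 and 6645 in cMyc+lateCD23lo, without overlap, and differed by -0.58 ± 0.22 (SE, adjusted p = 0.36, limma).

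Subunit c, which forms the rotating ring, is encoded by 3 genes that yield the same mature protein. Atp5g1 and Atp5g3 averaged 10543 and 8813 normalized counts per kb and Atp5g2 454. Atp5g1 was at 8841, 7880, 7667 and 8959 in cMyc+prePB, 6761, 5527, 8483 and 5577 for cMyc+early, 6694, 6974, 4796 and 6434 for cMyc+lateCD23int, and 7210, 7721, 8647 and 8395 in cMyc+lateCD23lo. The cMyc+prePB libraries lay above all cMyc+lateCD23int libraries, with a log2 difference of 0.43 ± 0.16 (SE, 95% interval 0.11 to 0.76, adjusted p = 0.42, limma). Atp5g3 had its highest values in cMyc+lateCD23lo, at 7607, 7508, 6841 and 7241, against 6198, 5493, 6595 and 5180 in cMyc+early and 5814, 6282, 5883 and 5293 in cMyc+prePB. Neither of those 2 groups overlapped with cMyc+lateCD23lo, and the log2 differences were -0.32 ± 0.12 (SE, adjusted p = 0.38, limma) and -0.33 ± 0.12 (SE, adjusted p = 0.27, limma). As a share of the counts of the 3 genes, Atp5g1 took 54.9% to 61.9% in cMyc+prePB, 49.0% to 55.3% for cMyc+early, 46.6% to 51.9% for cMyc+lateCD23int and 48.2% to 55.5% in cMyc+lateCD23lo.

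A few members grouped with complex V ran the other way. Atp5d, the delta subunit of the head, was at 1426, 2254, 2459 and 2641 in cMyc+prePB and at 1082, 1633, 1285 and 1218 in cMyc+lateCD23lo. A single cMyc+prePB library fell inside the cMyc+lateCD23lo range, and the log2 difference was 0.73 ± 0.27 (SE, 95% interval 0.17 to 1.29, adjusted p = 0.26, limma). Atp5sl, also named Dmac2, was placed with complex V by its symbol only and is not a structural subunit of the ATP synthase. Atp5sl was at 174, 528, 621 and 335 in cMyc+prePB and 182, 128, 248 and 181 in cMyc+lateCD23lo. Its log2 difference of 1.04 ± 0.42 (SE, adjusted p = 0.31, limma) was the highest of any member in that comparison and was 0.80 without cMyc+prePB replicate 3, and cMyc+prePB replicate 1 was among the cMyc+lateCD23lo values.

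The size of the difference between cMyc+early and cMyc+lateCD23lo varied with transcript length. The tested members had a median transcript length of 809.5 bases, against 2491 for all tested genes. For cMyc+early minus cMyc+lateCD23lo, the 52 members under 1000 bases had a median log2 fold change of -0.42 (25 at an unadjusted p under 0.05), and the 34 longer members had one of -0.13 (3 at that p). Over the 86 members Spearman's rho between length and this log2 fold change was 0.69, given as a description across genes that share libraries. The rho between GC content and this fold change was -0.05.

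Short transcripts outside the pathway had lower median values in cMyc+early too. Among genes with a mean of at least 1000 that are not members, the 523 under 1000 bases had a median log2 fold change of -0.25, with 17.6% at an unadjusted p under 0.05, and the 3048 longer ones had one of -0.01. By library, the median deviation of these 523 genes was -0.26 in cMyc+early replicate 2, -0.44 in cMyc+early replicate 4 and -0.40 in cMyc+lateCD23int replicate 3, and that of the 52 short members was -0.37, -0.60 and -0.49. In the same 3 libraries the 34 longer members were at -0.20, -0.17 and -0.35, and the 3048 longer non-members at -0.06, -0.02 and -0.07. For short transcripts in cMyc+lateCD23int replicate 1, at the other end, the medians were 0.27 for non-members and 0.37 for members. After removal of each library's trend on transcript length and GC content over all tested genes, a setting chosen after seeing the data, the median of the 86 members was -0.20 and 8 had an unadjusted p under 0.05 with the lower value in cMyc+early. The part of transcript length in the members' difference was not tested otherwise.

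**Figure D4:**
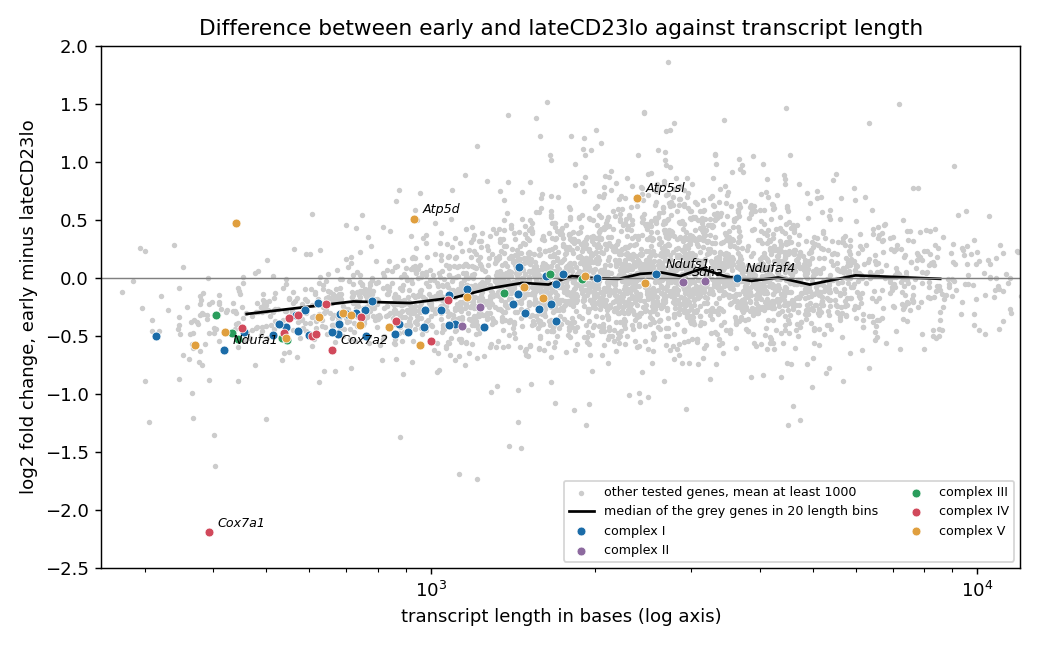
Log2 fold change of early minus lateCD23lo (y axis) against transcript length in bases (x axis, log axis) for the 86 tested members (colored by complex) and other tested genes with a mean of at least 1000 (grey, 30 of them beyond the axes). The black line is the median of the grey genes in 20 length bins. Under 1000 bases the medians were -0.42 for members and -0.25 for other genes, and at longer lengths -0.13 and -0.01.

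**Figure D5:**
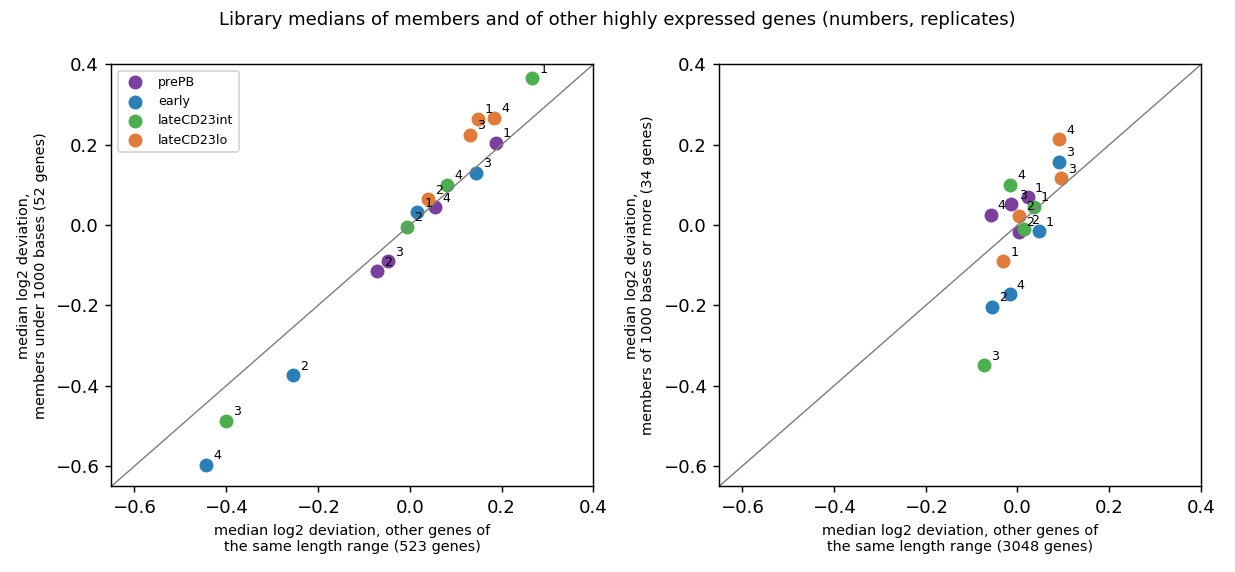
Median log2 deviation of the members (y axis) against that of other highly expressed genes in the same length range (x axis) in each of the 16 libraries, for transcripts under 1000 bases (left) and of 1000 bases or more (right). Points are libraries colored by subpopulation, and for short transcripts they lie near the grey line of equal values, from -0.60 and -0.44 in early replicate 4 to 0.37 and 0.27 in lateCD23int replicate 1.

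Other genes of the pathway were followed through 10 lists that hold 89 genes, of which 83 were tested. None passed the adjusted threshold in any of the 8 comparisons (limma). With the replicate number as a block, 2 passed, both in cMyc+prePB against the other subpopulations. Before adjustment and without the block, 5 of 83 had an F test p under 0.05, against 10.2% of all genes. The 13 subunits encoded by mitochondrial DNA had a median log2 fold change of -0.21 for cMyc+early minus cMyc+lateCD23lo (all 13 negative) and of -0.24 for cMyc+early minus cMyc+lateCD23int (12 negative). The latter rested on cMyc+lateCD23int replicate 1, the library with the highest mitochondrial share, without which it was -0.01 (-0.00797) with 7 of 13 negative, and it was -0.37 without cMyc+early replicate 1 and -0.45 without cMyc+lateCD23int replicate 3. The former was -0.08 without cMyc+lateCD23lo replicate 1 (10 negative) and -0.12 without cMyc+early replicate 2 or 4. Of the 13, mt-Co3, a catalytic core subunit of complex IV, had the lowest value in the latter comparison, -0.81 ± 0.30 (SE, adjusted p = 1.0, limma). Cytochrome c (Cycs) averaged 5958 in cMyc+prePB, 5013 for cMyc+early, 5542 for cMyc+lateCD23int and 6478 in cMyc+lateCD23lo.

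The medians of assembly factors outside the naming rule lay nearer 0 than that of the members. For cMyc+early minus cMyc+lateCD23lo the median was 0.02 over 4 factors of complex II, -0.03 over 6 of complex III, -0.12 over 20 of complex IV, 0.14 over 7 of complex I and -0.01 over 4 of complex V. The 15 regulators of mitochondrial biogenesis had a median of -0.25, the 6 genes for uncoupling and other electron entry one of -0.01, and the 6 genes of mitochondrial oxidant defence one of 0.10. The regulators went in both directions, and some had low and variable counts. Over the 16 libraries Esrra ran from 0.90 to 105 normalized counts and Polrmt from 1.65 to 217. Nrf1 averaged 1465, 1523, 1182 and 1047 and Tfam, a mitochondrial DNA-binding factor, 1834, 1621, 1908 and 1677 in cMyc+prePB, cMyc+early, cMyc+lateCD23int and cMyc+lateCD23lo. Twnk, the mitochondrial helicase, was at 350, 222, 379 and 182 in cMyc+early and at 8.96, 63.1, 265 and 310 in cMyc+lateCD23int. The groups overlapped, and the log2 difference of 1.67 ± 0.77 (SE, adjusted p = 1.0, limma), the largest of the regulators, was 0.64 without cMyc+lateCD23int replicate 1.

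The 5 genes with an F test p under 0.05, named after their values were seen, were Sod2, Sdhaf2, Gabpb1, Tmem186 and Cox17. Sod2, the mitochondrial superoxide dismutase, was at 3019, 2409, 2450 and 2458 in cMyc+prePB and at 1477 to 2232 in the 12 other libraries. The cMyc+prePB libraries lay above all others, with a log2 difference of 0.55 ± 0.13 from the other subpopulations (SE, adjusted p = 0.072, limma). Sdhaf2, which helps to attach FAD to Sdha, was at 2287, 2058, 2296 and 2275 in cMyc+prePB and at 2533 to 3920 in the others. It was lower in every cMyc+prePB library, by -0.51 ± 0.13 (SE, adjusted p = 0.12, limma), while Sdha itself differed by -0.17 ± 0.13 (SE, adjusted p = 0.65, limma). Sod2 and Sdhaf2 were the 2 genes that passed with the replicate block, so their calls depend on whether replicate numbers mark a real pairing, which the labels do not say. Cox17, a copper chaperone for complex IV, was at 3656, 2562, 3529 and 2270 in cMyc+early and at 4436, 4041, 4682 and 4631 in cMyc+lateCD23lo. These groups did not overlap, and the difference was -0.59 ± 0.19 (SE, adjusted p = 0.27, limma). Gabpb1, a subunit of the ETS factor also called NRF2, and Tmem186, a complex I assembly factor, differed by 0.45 ± 0.14 and 0.73 ± 0.35 between cMyc+prePB and the other subpopulations (SE, adjusted p = 0.21 and 0.45, limma).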

How the data were processed

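The authors deposited 1 table of normalized counts (unit signal) for 16 RNA-seq libraries, made with a NEBNext low-input kit on an Illumina HiSeq. The submitters' processing notes name Trimmomatic 0.36, STAR 2.5.2a, RSEM 1.2.31, DESeq2 1.20.0, R 3.5.1 and build GRCm38. Each value was a whole multiple of 1 step per library (0.827 to 1.078, tolerance 0.001), which gave back read counts, with the step of cMyc+lateCD23int replicate 1 too near 1 to be told from unscaled counts. Log2(normalized count + 1) was fitted with limma 3.58.1 (R 4.3.3) over all 16 libraries with a mean-variance trend, for 12505 genes with a mean of at least 10. edgeR 4.0.16 and DESeq2 1.42.0 on recovered reads, other scalings, filters and pseudocounts, a replicate block and leaving out libraries were alternatives. Scripts were tested on simulated data. Transcript length and GC content came from GENCODE vM21. Members and lists were chosen with earlier results of these data known. Members named were taken from the 3 smallest F test p-values per complex, the extremes of each pairwise comparison, a core subunit list, isoform sets and untested members, beside a few named after their values were seen. Not every gene of these lists was named. The values of 1 member are not reported here and its row is not drawn in the plot of members by library.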

Additional observations from a re-analysis of the deposited data

Results flagged for a closer look

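Among 32 quantities given per library or examined by subpopulation (128 groups of 4), 3 groups held 1 library far from the others, while chance flags about 1 in 20 groups, or 6.4 here. Cox7a2 was at 5219 in cMyc+lateCD23lo replicate 2 and at 6020 to 6146 in the other libraries of that subpopulation. Atp5g3 was at 5322 in cMyc+lateCD23int replicate 3 and at 6349 to 6542 in the other 3. The complex III genes took 0.26% of the counts (0.2595%) in cMyc+early replicate 3 and 0.2164% to 0.2196% in the other cMyc+early libraries.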

How the results depend on the processing

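The count of 0 members called was the same in every comparison under 31 or 32 alternatives. The number of members with an unadjusted p under 0.05 and lower in cMyc+early than in cMyc+lateCD23lo, 28, was 9 without the mean-variance trend, 8 with the length and GC trend removed and 0 without the 3 libraries of steepest slope on transcript length among non-members (cMyc+early replicates 2 and 4, cMyc+lateCD23int replicate 3), and ranged from 1 to 47 when 1 library was left out. The members' median for this comparison, -0.32, was -0.10 (-0.101) without those 3 libraries, a setting chosen after seeing the data. When 1 library was left out this median ranged from -0.423 to -0.226. For the subunits near 0, Ndufs1 turned to -0.011 with the trend removed and -0.00541 without the 3 libraries, and ranged from -0.0374 to 0.112 when 1 library was left out. Sdha turned to 0.0189 with libraries rescaled to the same total and 0.0635 with quantile normalization, and ranged from -0.203 to 0.0727 when 1 library was left out. Uqcrc1 turned to -0.184 with the trend removed and ranged from -0.0652 to 0.13 when 1 library was left out. The cause was not tested. With the replicate block, 0 members passed and 34 had an unadjusted p under 0.05 and the lower value in cMyc+early, while 2 other genes of the pathway passed for cMyc+prePB against the others, Sod2 (adjusted p = 0.042) and Sdhaf2 (adjusted p = 0.042, limma). Same-numbered libraries correlated in their deviations by -0.13 to 0.17 over 24 pairs, 5 of the 24 being over 0.1, and over the members by -0.811 to 0.745, 16 being over 0.1. Of 16 libraries, 10 correlated best with their own number, a hint from the data only, since the labels do not say that a number marks an animal or batch. Over the 4 subpopulations 51 genes of any kind passed, against 173 with the block, 29 by edgeR, 274 by DESeq2, 31 without a filter and 25 without the trend, and for cMyc+early against cMyc+lateCD23lo 35 passed, against 90 with the block, 23 by edgeR and 170 by DESeq2. Depth was even, and at 4 libraries a subpopulation a difference under about 1.33-fold lay within a member's interval.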
